A study of Mus musculus with 20 samples.

Results

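The genes described here are 10 genes of insulin signalling and of its forkhead transcription factors (FOXO) in mouse liver, namely Insr, Irs1, Irs2, Foxo1, Foxo3, Igfbp1, Pdk4, Trib1, Depp1 and Arrdc3, out of 22298 genes listed for each library. Of these, Depp1 and Arrdc3 were chosen because their level fell with knockdown of PPARγ, and the other genes because they belong to the insulin receptor pathway or are FOXO targets. All 10 genes were listed in every library and passed the filter on low counts, and 12342 genes were tested in all. The livers came from 20 Lepr db/db males. Loss of the leptin receptor makes these mice obese, hyperglycaemic and insulin resistant, and no lean mice are among the groups. An AAV8 vector was injected into the tail vein of every mouse at 5 weeks of age. In the Vec group (n = 5) the vector was non-targeting and the mice were gavaged with the CMC-Na vehicle. In the Vec+BBR group (n = 5) the same vector was followed by daily benzbromarone (BBR), an inhibitor of the urate transporter URAT1, at 25 mg/kg for 4 weeks. In the shRNA group (n = 5) the vector carried shRNAs against PPARγ and vehicle was given, and in the shRNA+BBR group (n = 5) the shRNA vector was followed by BBR at the same dose. Tissues were taken after a fast of 6 h, per the study's methods, which do not name a promoter that would confine the vectors to hepatocytes.

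Insulin binds its receptor on the hepatocyte, a tyrosine kinase, and the receptor phosphorylates the docking proteins IRS1 and IRS2, which recruit phosphatidylinositol 3-kinase and so activate AKT. AKT phosphorylates FOXO1 and FOXO3 and keeps them out of the nucleus. When insulin is low the FOXO proteins enter the nucleus and raise genes of the fasted liver, among them Igfbp1, the gluconeogenic genes Pck1 and G6pc, and Irs2 itself. FOXO activity is set largely by phosphorylation, so mRNA levels of Foxo1 and Foxo3 are not a measure of it. PPARγ is a nuclear receptor that is scarce in lean liver and raised in the fatty liver of db/db mice.

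A hallmark of insulin-repressed promoters is the insulin response element, whose core CAAAACA was searched on both strands in RefSeq promoter windows of GRCm38.p6 that run from 250 bases before to 50 bases after a start site. Windows were found for 8 of the 10 genes (10 windows), not for Insr and Trib1. The insulin element was present in Igfbp1, Irs1 and Irs2, and in 6.28% of all 32851 windows. The FOXO core GTAAACA, which shares its last 5 letters with the insulin element, was in none of the members' windows and in 3.65% of all windows. The stretches upstream of the start sites are shown for the 3 genes with the insulin element and for Depp1 and Arrdc3. Each is written 5′ to 3′ on the strand of its gene, with the insulin element in capitals, as TGTTTTG where it lies on the other strand.
Igfbp1, chr11:7197537-7197781, plus strand: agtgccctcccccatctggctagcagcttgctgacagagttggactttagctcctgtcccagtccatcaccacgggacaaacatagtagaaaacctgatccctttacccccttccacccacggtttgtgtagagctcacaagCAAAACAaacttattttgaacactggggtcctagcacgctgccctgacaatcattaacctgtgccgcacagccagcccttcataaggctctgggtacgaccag
Irs1, chr1:82291440-82291689, minus strand: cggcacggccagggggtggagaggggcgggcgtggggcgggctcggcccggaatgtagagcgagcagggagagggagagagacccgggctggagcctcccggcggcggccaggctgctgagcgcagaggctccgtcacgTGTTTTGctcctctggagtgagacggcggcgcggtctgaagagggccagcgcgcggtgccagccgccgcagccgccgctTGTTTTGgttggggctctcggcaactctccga
Irs2, chr8:11008930-11009179, minus strand: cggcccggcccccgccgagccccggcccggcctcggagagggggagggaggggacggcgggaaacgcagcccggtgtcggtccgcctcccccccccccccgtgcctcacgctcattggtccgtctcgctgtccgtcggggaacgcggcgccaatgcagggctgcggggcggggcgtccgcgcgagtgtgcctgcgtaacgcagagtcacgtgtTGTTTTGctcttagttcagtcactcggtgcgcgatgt
Depp1, chr6:116650434-116650608, plus strand: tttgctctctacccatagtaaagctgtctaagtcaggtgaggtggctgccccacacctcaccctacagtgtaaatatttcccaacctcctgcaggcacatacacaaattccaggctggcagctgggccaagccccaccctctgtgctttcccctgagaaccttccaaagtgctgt
Arrdc3, chr13:80883134-80883383, plus strand: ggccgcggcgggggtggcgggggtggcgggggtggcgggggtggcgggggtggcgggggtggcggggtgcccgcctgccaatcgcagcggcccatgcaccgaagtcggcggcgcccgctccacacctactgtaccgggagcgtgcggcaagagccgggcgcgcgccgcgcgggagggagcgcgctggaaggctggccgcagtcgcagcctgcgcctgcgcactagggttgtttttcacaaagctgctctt
The insulin element began 108 bases before the RefSeq start of Igfbp1, 111 and 32 bases before that of Irs1 and 37 bases before that of Irs2. The RefSeq start of Irs2 lies 471 bases upstream of its start in GENCODE M21. Depp1 and Arrdc3 held neither of these exact letter strings in their windows. Only these spellings were searched, and variant forms of either motif were not looked for in any window. A match is a run of letters, and binding was not measured here.

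Total counts ran from 17432903 to 25024094 per library, with a median of 21409848. The share of mitochondrial genes was 9.14% to 10.8% in Vec, 9.96% to 13.8% in Vec+BBR, 9.90% to 12.3% in shRNA and 10.2% to 16.2% in shRNA+BBR livers, so it reached higher values with BBR, and its part in the values with BBR was not tested. In the livers of the Vec mice Pparg measured between 16.4 and 35.9 normalised CPM (counts scaled to library size with TMM factors), and in those of the shRNA mice between 3.24 and 7.31 CPM, a log2 fold change of -2.12 ± 0.28 (SE) with an adjusted p = 4.47e-05. Under BBR it fell from between 28.0 and 38.3 CPM to between 7.19 and 21.8 CPM with the shRNA vector (log2 fold change -1.20 ± 0.26, adjusted p = 0.00843). The targeted gene thus differed between vectors in the direction of the labels, without overlap. BBR raised Pparg in shRNA livers (log2 fold change 1.28 ± 0.28, adjusted p = 0.00773), and the effects of knockdown under BBR and in vehicle differed by 0.92 ± 0.38 (adjusted p = 0.208). Summed hepatocyte markers lay between 83910 and 138900 CPM in all 20 livers, and pancreas markers were at or below the floor of 3 counts per library in every group. Summed skeletal muscle markers reached 12.1 CPM in 1 Vec+BBR liver and at most 0.274 CPM in the livers of the other groups. All adjusted p-values of comparisons between groups come from edgeR (quasi-likelihood) and are adjusted over all tested genes by Benjamini-Hochberg.

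On the scale of FPKM, which takes transcript length into account, Igfbp1 had the highest level of the 10 genes in Vec livers, at 51.1 ± 28.2 (SD, n = 5). Depp1 followed at 22.2 ± 9.88 FPKM, Insr at 9.67 ± 5.06 and Trib1 at 8.52 ± 0.76. Arrdc3 was at 7.583 ± 1.601 FPKM, Foxo3 at 7.19 ± 1.45, Foxo1 at 5.41 ± 1.53 and Pdk4 at 4.05 ± 2.87. The lowest were the docking proteins, with Irs2 at 1.29 ± 0.39 FPKM and Irs1 at 0.57 ± 0.40. Neighbours in this order overlapped between mice in every case. Foxo1 was above Irs1 and Irs2 in FPKM in every Vec liver.

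**Figure D1:**
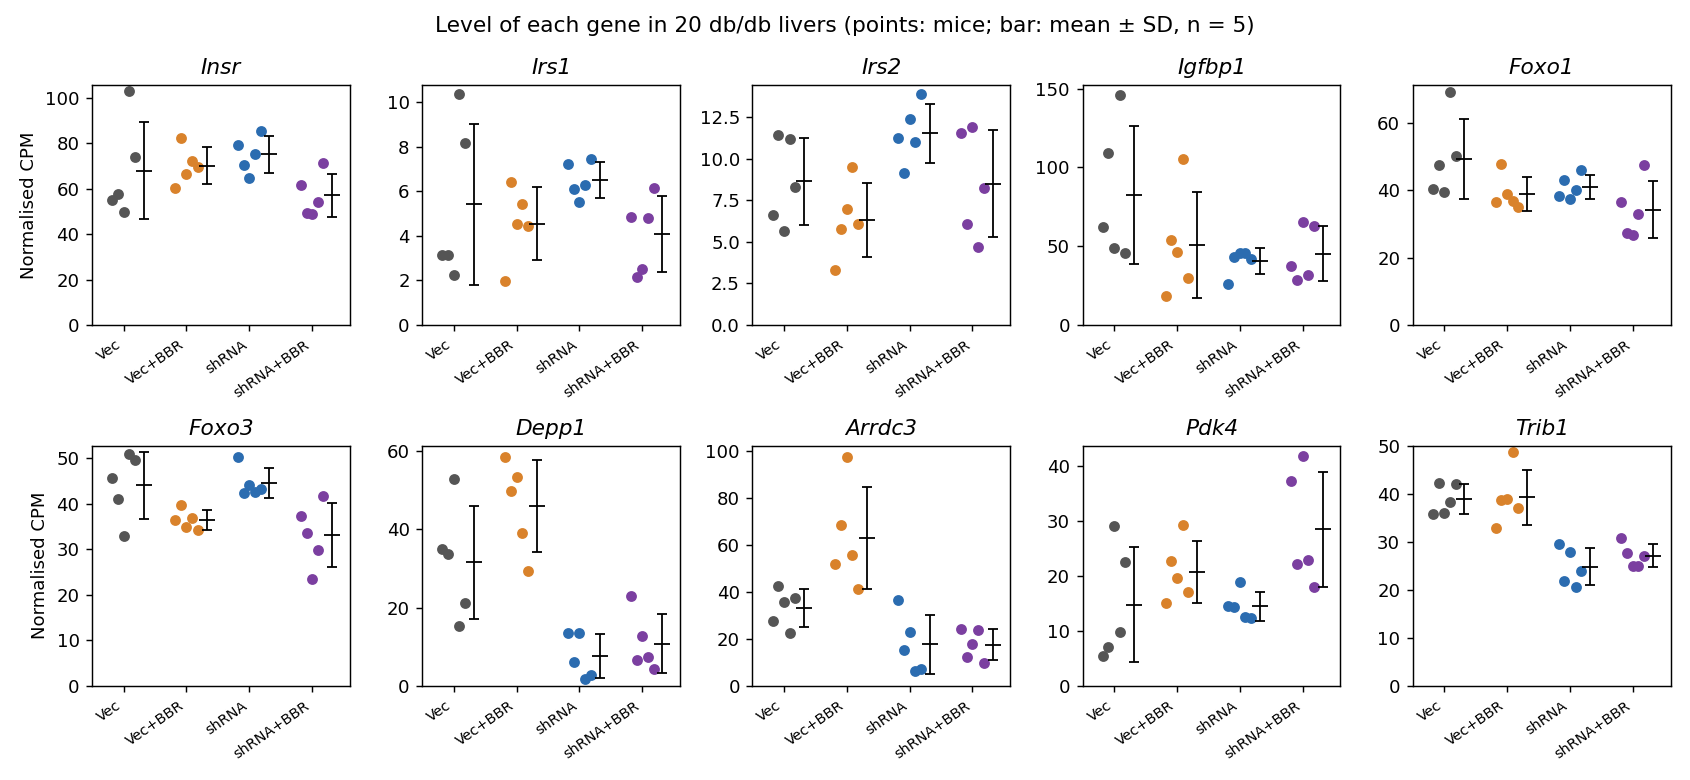
Normalised CPM of the 10 genes in each of 20 livers, by group, with a separate linear scale from 0 for each gene; bars give the mean ± SD of 5 mice. Trib1, Depp1 and Igfbp1 lay lower in every shRNA liver than in every Vec liver, as for 5.01% of all genes. For Igfbp1 the gap was narrow (45.54 against 45.92 CPM), and it spread from 45.9 to 146 CPM in the Vec group alone.

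The question of the first comparison was how BBR changed these genes over both vectors, as the mean of the BBR effects in Vec and in shRNA mice. This mean does not depend on the difference between vectors, by which Depp1 and Arrdc3 were chosen, so all 10 genes were tested. BBR lowered Foxo3 and Foxo1 and raised Pdk4, and the other 7 genes did not pass the test. These are 3 of 10 genes, where 27.3% of all genes passed (13.9% higher and 13.4% lower), so the share is near the background. The median log2 fold change of the 10 genes was -0.22, beside -0.002 for all genes tested.

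Foxo3, a FOXO factor best known for stress resistance and autophagy genes, measured 45.7, 40.9, 33.0, 51.0 and 49.6 CPM in the Vec livers. In Vec+BBR livers it measured 36.5, 39.6, 34.8, 36.9 and 34.2 CPM, all within the range of the Vec livers. In shRNA livers it was at 50.3, 42.5, 44.1, 42.5 and 43.3 CPM, and in shRNA+BBR livers at 37.4, 33.5, 23.5, 29.8 and 41.7 CPM. Each shRNA+BBR liver thus lay below each shRNA liver, as for 5.58% of all genes (11.4% without overlap in either direction). The log2 fold change with BBR was -0.35 ± 0.09 (adjusted p = 0.00658) over both vectors. It was -0.42 ± 0.13 in shRNA mice (adjusted p = 0.0297) and -0.28 ± 0.13 in Vec mice (adjusted p = 0.143). The difference between these effects did not pass the test (-0.15 ± 0.18, adjusted p = 0.673). The call in shRNA mice was lost without shRNA replicate 1, whose Foxo3 level is the highest of its group (-0.38, adjusted p = 0.0719). It was also lost without shRNA+BBR replicate 2 (-0.43, adjusted p = 0.055), replicate 3 (-0.32, adjusted p = 0.0944) or replicate 4 (-0.39, adjusted p = 0.0694).

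Foxo1, the main FOXO factor of hepatic glucose production, was at 40.4, 47.6, 39.4, 69.1 and 50.1 CPM in the Vec livers. It was at 36.5, 47.7, 38.8, 36.9 and 34.98 CPM in Vec+BBR, at 38.4, 43.0, 37.3, 40.1 and 46.0 CPM in shRNA and at 36.5, 27.4, 26.6, 33.1 and 47.4 CPM in shRNA+BBR livers. All groups overlapped, and 1 Vec liver stood above the 19 others. BBR lowered Foxo1 by 0.30 on the log2 scale over both vectors (log2 fold change -0.30 ± 0.11, adjusted p = 0.045). This call lies close to the threshold, and it was lost in 14 of the 20 fits that left out 1 library each, with adjusted p-values up to 0.0949 (without Vec replicate 4, log2 fold change -0.22). In the single comparisons Foxo1 did not pass the test, with -0.34 ± 0.15 in Vec (adjusted p = 0.139) and -0.26 ± 0.15 in shRNA mice (adjusted p = 0.24).

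Pdk4 encodes the kinase that inhibits pyruvate dehydrogenase and spares glucose in fasting, and its gene responds to FOXO, PPARα and glucocorticoids. It measured 5.46, 7.13, 29.1, 9.84 and 22.6 CPM in Vec and 15.1, 22.8, 19.6, 29.4 and 17.1 CPM in Vec+BBR livers. In shRNA livers it was at 14.5, 14.3, 18.8, 12.6 and 12.3 CPM and in shRNA+BBR livers at 37.4, 22.3, 41.9, 22.9 and 18.1 CPM. The 2 shRNA groups overlapped by 1 mouse on each side, while the Vec group alone spanned most of the range. The log2 fold change with BBR was 0.73 ± 0.25 over both vectors (1.66-fold, adjusted p = 0.0321). It was 0.97 ± 0.35 in shRNA mice (adjusted p = 0.0593) and 0.48 ± 0.35 in Vec mice (adjusted p = 0.375), neither past the threshold. The call over both vectors was lost in 8 of the 20 fits with 1 library left out, with adjusted p-values up to 0.0725 (without shRNA+BBR replicate 3, log2 fold change 0.63).

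The receptor and its docking proteins did not pass the test over both vectors. Insr ranged from 49.8 to 103 CPM in Vec, from 60.1 to 82.2 in Vec+BBR, from 64.6 to 85.6 in shRNA and from 48.8 to 71.2 CPM in shRNA+BBR livers. Its log2 fold change with BBR was -0.18 ± 0.11 (adjusted p = 0.252), made up of 0.05 ± 0.16 in Vec and -0.40 ± 0.16 in shRNA mice (adjusted p = 0.883 and 0.0862). The difference between these effects was -0.44 ± 0.22 with an adjusted p = 0.289. Irs1 was the least abundant of the genes, at 1.97 to 10.3 CPM over all livers, and its log2 fold change with BBR was -0.47 ± 0.26 (adjusted p = 0.193). Irs2, the docking protein that FOXO raises in fasting, ranged from 5.69 to 11.4 CPM in Vec, from 3.34 to 9.51 in Vec+BBR, from 9.15 to 13.9 in shRNA and from 4.70 to 11.9 CPM in shRNA+BBR livers. With BBR the log2 fold change of Irs2 was -0.45 ± 0.27 in Vec and -0.45 ± 0.26 in shRNA mice, and -0.45 ± 0.19 over both (adjusted p = 0.0784). Its groups overlapped in each comparison, and the value over both vectors passed the threshold without Vec replicate 3 (-0.51, adjusted p = 0.0415), without Vec+BBR replicate 4 (-0.54, adjusted p = 0.0363) and without shRNA+BBR replicate 1 or 3 (-0.51 and -0.53, adjusted p = 0.0472 and 0.0478).

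Depp1, a small FOXO-induced protein linked to autophagy, and Arrdc3, an α-arrestin that acts as an adaptor of membrane receptors, had positive values with BBR that did not pass the test. The log2 fold change over both vectors was 0.53 ± 0.33 for Depp1 (adjusted p = 0.244) and 0.46 ± 0.26 for Arrdc3 (adjusted p = 0.206). Without shRNA+BBR replicate 1, in which Depp1 is at 23.1 CPM, the value of Depp1 was 0.29 (adjusted p = 0.518). Without shRNA replicate 1, in which Arrdc3 is at 36.6 CPM, the value of Arrdc3 was 0.68 with an adjusted p = 0.0394. In Vec mice alone the values were 0.55 ± 0.45 for Depp1 and 0.93 ± 0.37 for Arrdc3, and in shRNA mice 0.51 ± 0.48 and -0.01 ± 0.38. No test is given for them in single groups, since these groups are the ones used to choose them. Igfbp1 (-0.27 ± 0.27, adjusted p = 0.482) and Trib1 (0.07 ± 0.08, adjusted p = 0.511) had the remaining values with BBR.

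Within single vectors, 0 of the 8 genes tested passed in Vec mice by edgeR and 0 by DESeq2, with 2 at an unadjusted p under 0.05 (Foxo1 and Foxo3). The background by edgeR is 15.5% of all genes, and 30.2% at the unadjusted limit. By DESeq2 2249 of all genes passed. In shRNA mice 1 of 8 passed, Foxo3, against 15.7% of all genes. The difference between the BBR effects passed for 0 of 8 genes by edgeR, by DESeq2 and at an unadjusted p under 0.05, and for 0.146% of all genes by edgeR (18.5% at the unadjusted limit). For this difference DESeq2 called 338 of all genes.

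**Figure D2:**
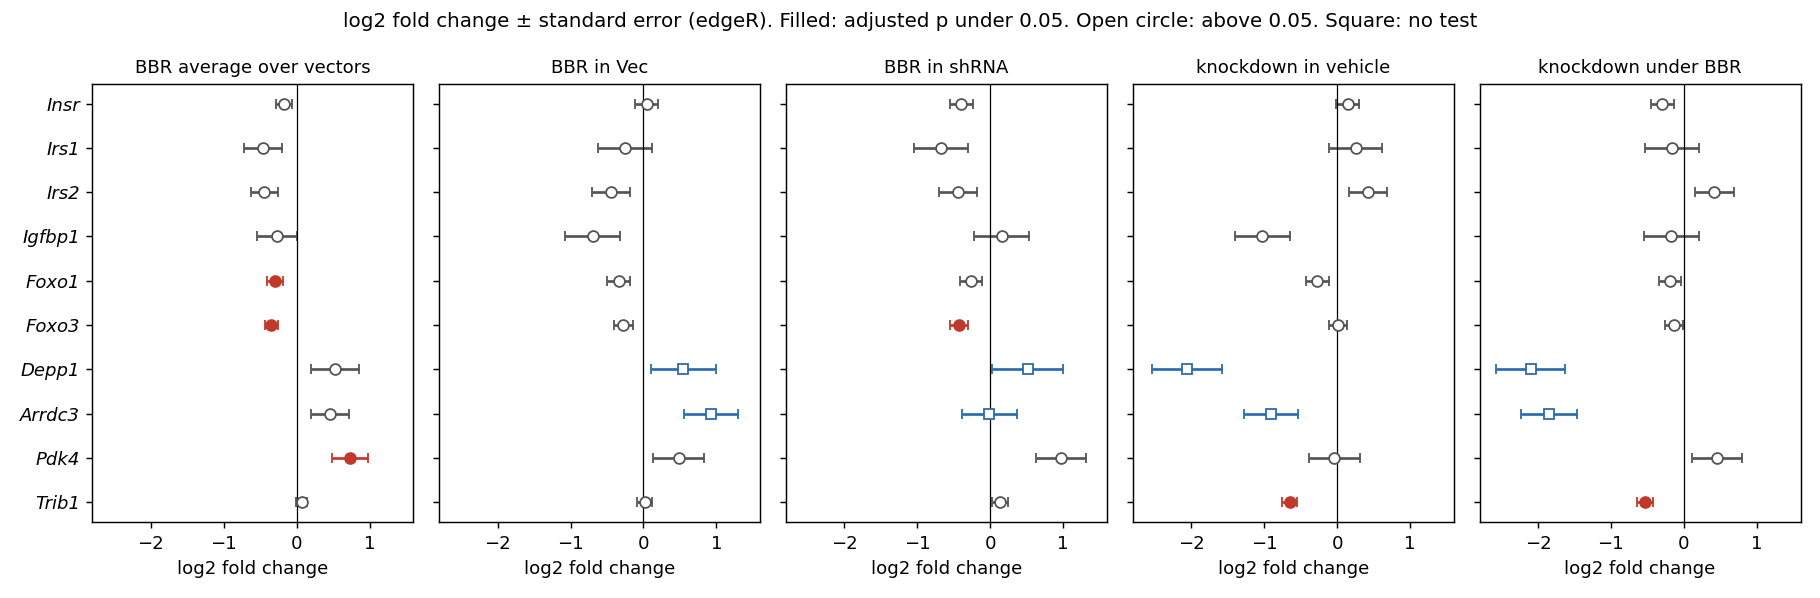
log2 fold change ± SE of each gene in 5 comparisons, on a common horizontal scale. Filled circles passed an adjusted p of 0.05, open circles did not, and squares are Depp1 and Arrdc3 where no test applies; with BBR Foxo3 (-0.35) and Foxo1 (-0.30) lie left of 0 and Pdk4 (0.73) right of it, and Trib1 is the filled circle in both knockdown panels.

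The next comparison asked how knockdown of PPARγ changed the genes in vehicle-treated mice. Trib1 was the only one of the 8 tested genes that passed, and it was lower in shRNA livers. The background is 13.2% of all genes in either direction, and 7.91% of all genes passed as lower. TRIB1 is a pseudokinase that brings the transcription factor C/EBPα to the ubiquitin ligase COP1, and the gene is known for its link to plasma lipids. Trib1 measured 35.8, 42.2, 36.1, 38.3 and 42.1 CPM in Vec livers and 29.6, 21.9, 27.8, 20.5 and 24.0 CPM in shRNA livers, with no overlap, as for 8.96% of all genes (5.01% with the shRNA group wholly lower). The log2 fold change was -0.65 ± 0.11 (1.57-fold lower, adjusted p = 0.000433). Under BBR the levels were 33.0, 38.8, 39.0, 48.6 and 37.0 CPM with the control vector and 30.8, 27.7, 24.91, 25.01 and 27.04 CPM with the shRNA vector, again without overlap, as for 8.48% of all genes (5.19% with the shRNA group wholly lower). The log2 fold change there was -0.54 ± 0.11 (adjusted p = 0.00519), 1 of 8 genes past the threshold, against 8.13% of all genes (4.82% lower). The effect of knockdown on Trib1 did not differ detectably between vehicle and BBR (0.11 ± 0.15, adjusted p = 0.706). Leaving out any single library kept Trib1 past the threshold in both comparisons, with log2 fold changes from -0.72 to -0.59 in vehicle and from -0.59 to -0.45 under BBR.

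Igfbp1, the secreted binding protein of insulin-like growth factors that insulin represses and FOXO1 induces, varied over a wide range in Vec livers. It measured 62.3, 109, 48.6, 146 and 45.9 CPM in Vec livers and 26.1, 43.4, 45.5, 45.5 and 41.9 CPM in shRNA livers. The lowest Vec liver (45.92 CPM) lay just above the highest shRNA liver (45.54 CPM), so that the groups did not overlap, as for 8.96% of all genes (5.01% with the shRNA group wholly lower). The log2 fold change of -1.02 ± 0.38 did not pass the test (adjusted p = 0.081). It passed in a fit of these 2 groups alone (-1.02, adjusted p = 0.0488). In Vec+BBR livers Igfbp1 measured 18.5, 53.7, 46.4, 105 and 30.1 CPM and in shRNA+BBR livers 37.5, 28.5, 65.1, 31.8 and 63.0 CPM. These groups overlapped, with a log2 fold change of -0.17 ± 0.38 (adjusted p = 0.826). BBR in Vec mice gave -0.70 ± 0.38 (adjusted p = 0.228), which passed without Vec+BBR replicate 4, the liver at 105 CPM (-1.15, adjusted p = 0.0462), and was -0.39 without Vec replicate 4, the liver at 146 CPM (adjusted p = 0.527). The difference between the knockdown effects under BBR and in vehicle was 0.85 ± 0.54 (adjusted p = 0.393).

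The other 6 genes tested did not pass the test with knockdown in either setting. In vehicle-treated mice the log2 fold change was 0.14 ± 0.16 for Insr, 0.26 ± 0.36 for Irs1, 0.42 ± 0.26 for Irs2, -0.27 ± 0.15 for Foxo1, 0.015 ± 0.125 for Foxo3 and -0.04 ± 0.35 for Pdk4. Under BBR it was -0.30 ± 0.16 for Insr, -0.16 ± 0.37 for Irs1, 0.42 ± 0.26 for Irs2, -0.19 ± 0.15 for Foxo1, -0.13 ± 0.13 for Foxo3 and 0.45 ± 0.34 for Pdk4. The groups of these 6 genes overlapped in both settings.

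Depp1 and Arrdc3 were chosen by their fall with knockdown, and their values are given as a description with no test. Depp1 measured 34.9, 33.6, 52.8, 15.3 and 21.2 CPM in Vec and 13.4, 6.19, 13.4, 1.84 and 2.83 CPM in shRNA livers. Under BBR it was at 58.6, 49.8, 53.5, 39.0 and 29.2 CPM with the control vector and at 23.1, 6.63, 12.6, 7.30 and 4.30 CPM with the shRNA vector. The groups did not overlap in either comparison, and the log2 fold changes were -2.06 ± 0.48 in vehicle (4.18-fold lower) and -2.10 ± 0.47 under BBR (4.27-fold lower). The levels within the shRNA group spread over a wider relative range than those of the Vec group, from 1.84 to 13.4 CPM.

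Arrdc3 measured 27.8, 42.4, 35.5, 22.5 and 37.5 CPM in Vec and 36.6, 15.01, 23.1, 6.40 and 7.21 CPM in shRNA livers. These groups overlapped, through the shRNA livers at 36.6 and 23.1 CPM, and the log2 fold change was -0.91 ± 0.37. Under BBR the levels were 51.9, 68.5, 97.6, 55.6 and 41.1 CPM with the control vector and 24.1, 12.1, 17.8, 23.9 and 9.63 CPM with the shRNA vector. Here the groups did not overlap, and the log2 fold change was -1.85 ± 0.38 (3.597-fold lower). Depp1 overlaps Rassf4 on the opposite strand, and the library kit is not stated to keep strand, so their reads cannot be told apart in the overlap. Rassf4 had log2 fold changes of -0.89 ± 0.59 in vehicle (adjusted p = 0.337) and -1.79 ± 0.59 under BBR (adjusted p = 0.0641), and lay between 2.42 and 38.5 CPM. Irs1 overlaps Gm9747 in the same way, and the reads of these genes cannot be told apart there either. Gm9747 lay between 2.06 and 10.7 CPM, near the range of Irs1, and passed as higher with BBR in shRNA mice (1.01 ± 0.29, adjusted p = 0.0257) and with knockdown under BBR (0.998 ± 0.291, adjusted p = 0.0376). It was at -0.77 ± 0.29 with BBR in Vec mice (adjusted p = 0.0807) and at -0.78 ± 0.29 with knockdown in vehicle (adjusted p = 0.0822).

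The 10 genes also varied between mice of the same group, and this variation was shared by some of them. After the group means were removed from log2 CPM, 45 pairs of genes were compared over the 20 livers, with 100000 permutations within groups and adjustment over the pairs. Of these, 6 pairs passed the threshold by Pearson's r, all positive, and 5 of them also by Spearman's rho. The share that would pass among pairs of all genes was not computed. Depp1 and Arrdc3 correlated with r = 0.83 (permutation p = 0.00061, adjusted p = 0.00731), rho = 0.76 (permutation p = 0.0022, adjusted p = 0.0247), and r = 0.78 without the 2 livers farthest from the median of Depp1. Their deviations were widest in the shRNA group, a group used to choose these genes. They ran there from -1.58 to 1.23 for Depp1 and from -1.15 to 1.36 for Arrdc3, and in Vec from -0.92 to 0.87 and from -0.52 to 0.39. Irs2 and Igfbp1, both with the insulin element in their window, correlated with r = 0.74 (permutation p = 0.00212, adjusted p = 0.0191), rho = 0.68 (permutation p = 0.0055, adjusted p = 0.0495), and r = 0.67 without the 2 farthest livers. Irs2 and Igfbp1 within groups did not pass without Vec+BBR replicate 1 (r = 0.66, adjusted p = 0.0652) or without Vec+BBR replicate 4 (r = 0.69, adjusted p = 0.0562), the livers with the lowest and the highest Igfbp1 level of that group. In the shRNA group the deviations of Irs2 and Igfbp1 did not rise together. Its liver lowest in Igfbp1 (-0.60) had Irs2 at -0.02, and its liver lowest in Irs2 (-0.32) had Igfbp1 at 0.13. Correlations within single groups were not computed. Irs1, which also holds the insulin element, had r = 0.43 with Igfbp1 (permutation p = 0.121, adjusted p = 0.248). The part of the insulin element in these correlations was not tested.

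The other 4 pairs were formed by Insr, Irs1, Foxo1 and Foxo3. Insr correlated with Irs1 at r = 0.91 (permutation p = 1e-05, the smallest these permutations can give, adjusted p = 0.00045; rho = 0.91, permutation p = 1e-05) and at r = 0.89 without the 2 farthest livers. Insr and Foxo1 had r = 0.89 (permutation p = 3e-05, adjusted p = 0.000675), rho = 0.81 (permutation p = 0.00034) and r = 0.81 without the 2 farthest livers. Irs1 and Foxo1 had r = 0.79 (permutation p = 0.00065, adjusted p = 0.00731), rho = 0.77 (permutation p = 0.0014) and r = 0.78 without the 2 farthest. Insr and Foxo3 had r = 0.69 (permutation p = 0.00625, adjusted p = 0.0469) and rho = 0.60 (permutation p = 0.0184, adjusted p = 0.126), r = 0.61 without the 2 farthest, and passed in 3 of the 20 sets that left out 1 liver each. Insr, Irs1 and Foxo1 have long transcripts, of 9355, 9144 and 8665 bases, and lie above the 95th percentile of length among tested genes.

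These 3 genes moved with the levels of other long transcripts. A length score was taken for each library as the mean log2 CPM of the tenth of tested genes with the longest transcripts minus that of the tenth with the shortest. Within groups Insr followed this score with r = 0.91 (permutation p = 1e-05, adjusted p = 5e-05; rho = 0.91, permutation p = 1e-05), Irs1 with r = 0.95 (permutation p = 1e-05, adjusted p = 5e-05; rho = 0.94, permutation p = 1e-05) and Foxo1 with r = 0.83 (permutation p = 5e-05, adjusted p = 0.000167; rho = 0.76, permutation p = 0.00083), over 10 genes compared. Without the 2 farthest livers r was 0.91, 0.91 and 0.83. For Depp1 r was -0.45 (permutation p = 0.0211, adjusted p = 0.0528; rho = -0.51, permutation p = 0.0184, adjusted p = 0.0461), and for Arrdc3 -0.17 (permutation p = 0.354; rho = -0.14). For Foxo3, also a long transcript (6848 bases), r was 0.55 (permutation p = 0.029, adjusted p = 0.058; rho = 0.46, permutation p = 0.081). For Igfbp1, a short one (1525 bases), it was 0.55 (permutation p = 0.0462, adjusted p = 0.077; rho = 0.42, permutation p = 0.124). For Irs2 it was 0.40 (permutation p = 0.145; rho = 0.34), for Trib1 0.25 (permutation p = 0.284; rho = 0.24) and for Pdk4 0.04 (permutation p = 0.913; rho = 0.10). With the score removed, r fell to 0.31 for Insr and Irs1, to 0.57 for Insr and Foxo1 and to 0.035 for Irs1 and Foxo1. It was 0.85 for Depp1 and Arrdc3, 0.68 for Irs2 and Igfbp1 and 0.55 for Insr and Foxo3. The score had medians of -1.09 in Vec, -0.76 in Vec+BBR, -0.72 in shRNA and -0.98 in shRNA+BBR livers. It ran from -1.17 to -0.54 in Vec, from -1.08 to -0.47 in Vec+BBR, from -0.86 to -0.66 in shRNA and from -1.20 to -0.68 in shRNA+BBR livers. All groups thus overlapped, and a difference of the score between groups was not tested. Within groups 12.9% of all other tested genes lay beyond r of 0.7 with Insr in either direction, against 0.251% with Depp1. This share was 14.8% for Irs1, 10.6% for Foxo1, 2.24% for Foxo3, 0.867% for Igfbp1, 0.365% for Irs2 and 0.3% for Arrdc3.

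With the length score as a covariate, an alternative chosen after these values were seen, 4 of the 8 tested genes passed for BBR in Vec mice in place of 0, all lower. Of all 12342 genes 2345 passed there, in place of 1908. They were Irs1 (-0.69, adjusted p = 0.0045), Igfbp1 (-1.10, adjusted p = 0.0406), Foxo1 (-0.51, adjusted p = 0.00168) and Foxo3 (-0.37, adjusted p = 0.0281). In shRNA mice Foxo3 no longer passed (-0.30, adjusted p = 0.108), where 947 of all genes passed in place of 1932. Over both vectors Foxo1 (-0.27, adjusted p = 0.0035), Foxo3 (-0.34, adjusted p = 0.00267) and Pdk4 (0.725, adjusted p = 0.0315) passed, and Irs1 in addition (-0.37, adjusted p = 0.00985). For knockdown in vehicle Igfbp1 (-1.325, adjusted p = 0.0192) and Foxo1 (-0.45, adjusted p = 0.0044) passed beside Trib1 (-0.69, adjusted p = 0.000429). Under BBR Irs1 passed as higher with knockdown (0.53, adjusted p = 0.0394), as did Gm9747 on the other strand without the covariate, and Trib1 as lower (-0.485, adjusted p = 0.0117). Of all 12342 genes, this fit called 4082 for BBR over both vectors, 1477 for knockdown in vehicle and 1313 for knockdown under BBR. The part of transcript length in the values of the 10 genes was not tested beyond this fit, and a technical and a biological source of the score cannot be told apart here.

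**Figure D3:**
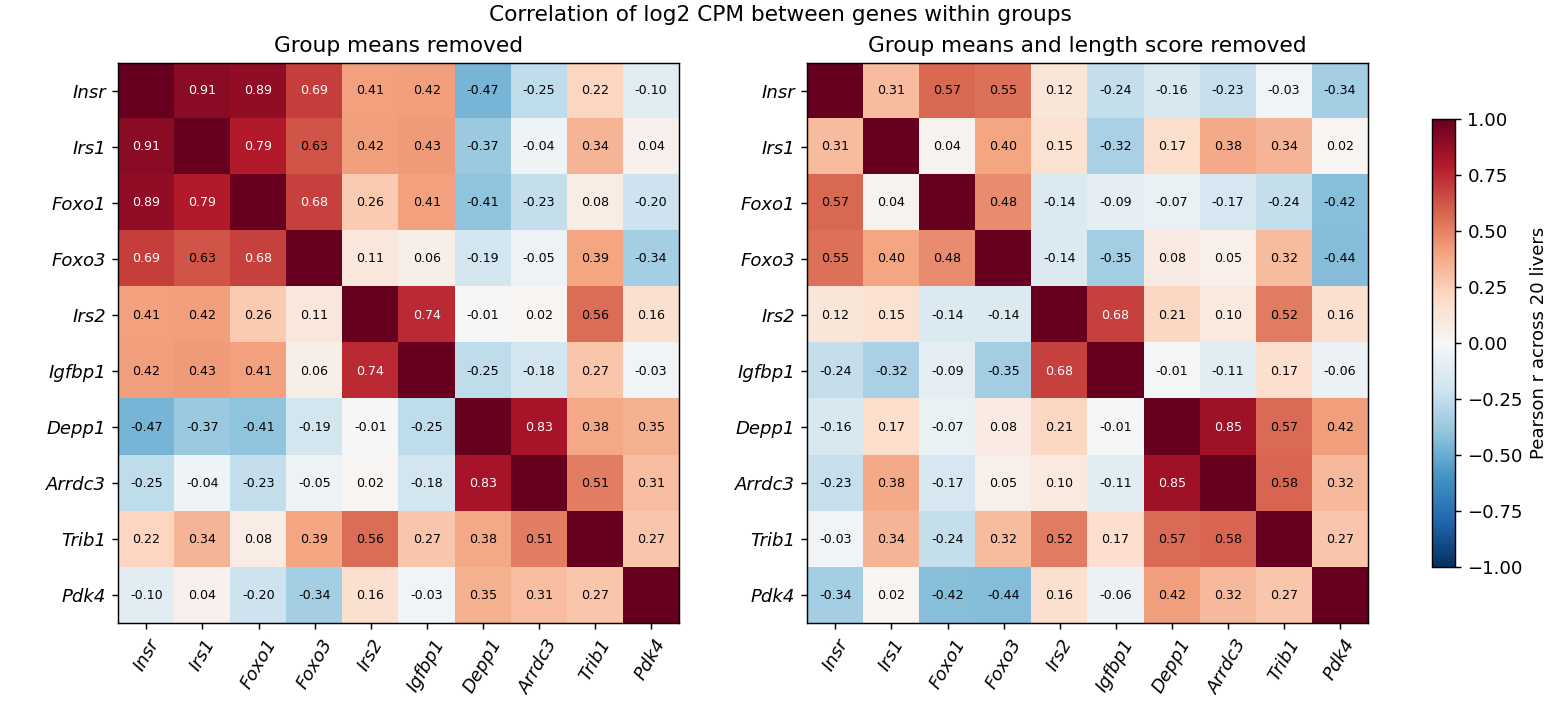
Pearson r between log2 CPM of the 10 genes across 20 livers, with group means removed (left) and with group means and the length score removed (right), on a colour scale from -1 to 1. The block of Insr, Irs1 and Foxo1 pales on the right (0.91 to 0.31 for Insr and Irs1), while Depp1 with Arrdc3 (0.83 and 0.85) and Irs2 with Igfbp1 (0.74 and 0.68) stay.

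**Figure D4:**
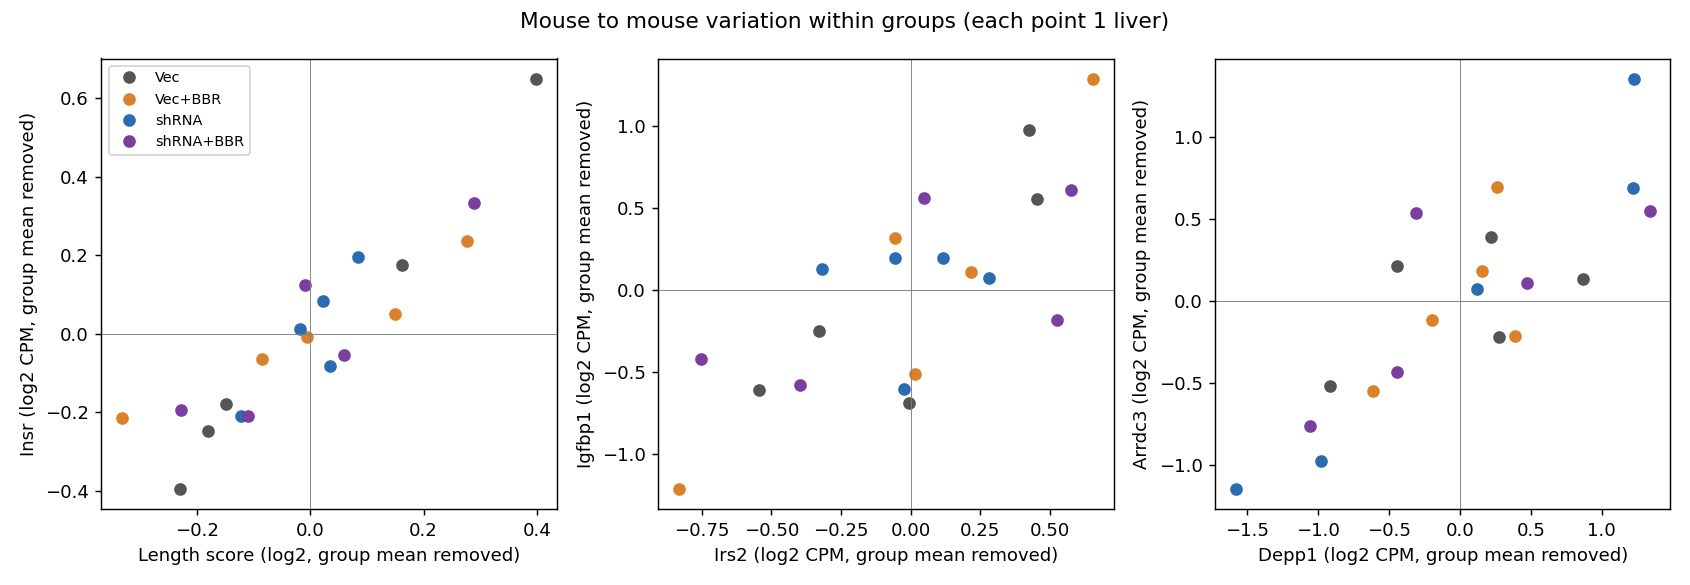
Each point is 1 liver with its group mean removed, in log2 units: Insr against the length score (left), Igfbp1 against Irs2 (middle) and Arrdc3 against Depp1 (right), coloured by group. Points of all 4 groups lie along the rising diagonal, with r = 0.91, 0.74 and 0.83.

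For 3 of the genes, the genes with the nearest pattern over the 20 livers, group means removed, were looked up among genes with a mean count of at least 50. Depp1 was nearest to Plekhf1 (r = 0.90, rho = 0.92), Bbc3 (r = 0.83) and Arrdc3 (r = 0.83). Arrdc3 was nearest to Depp1, to Insig1 (r = 0.81) and to Dynlt1f (r = 0.79). Igfbp1 was nearest to Nfxl1 (r = 0.85), Luc7l2 (r = 0.81) and Csrnp1 (r = 0.80). Depp1 and Arrdc3 were thus each within the 3 nearest genes of the other.

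The rest of the pathway was described by lists written from general knowledge. Among 24 tested genes that carry the insulin signal onwards, BBR over both vectors raised 3 and lowered 5, or 33.3% against 27.3% of all genes, with a median log2 fold change of -0.03. Pik3r1, the regulatory subunit of phosphatidylinositol 3-kinase, rose (0.32 ± 0.09, adjusted p = 0.0134), and so did the growth kinase Mtor (0.24 ± 0.08, adjusted p = 0.0237). Foxo4, the third FOXO factor measured, fell by 0.30 on the log2 scale (-0.30 ± 0.09, adjusted p = 0.0151), beside -0.30 for Foxo1 and -0.35 for Foxo3. Foxo6 was at or below the floor in every Vec, shRNA and shRNA+BBR library. With knockdown in vehicle 1 of the 24 rose and 3 fell, or 16.7%, a share near the 13.2% of all genes. The adaptor Grb2 fell (-0.60 ± 0.06, adjusted p = 6.51e-06), as did the glycogen synthase kinase Gsk3a (-0.34 ± 0.08, adjusted p = 0.00463), and Pdpk1, the kinase that activates AKT, rose (0.36 ± 0.10, adjusted p = 0.0163). Under BBR 0 rose and 2 fell with knockdown, or 8.33% against 8.13% of all genes, namely Shc1 (-0.27 ± 0.07, adjusted p = 0.0219) and Grb2 (-0.22 ± 0.06, adjusted p = 0.0311).

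Of 15 tested brakes on the pathway, such as phosphatases and SOCS proteins, 1 passed for BBR over both vectors. The share is 6.67%, below the 27.3% of all genes. The brake that passed was Enpp1, an ectoenzyme that inhibits the insulin receptor, which fell (-0.535 ± 0.105, adjusted p = 0.00104). With knockdown 0 of 15 passed by edgeR in either setting, where 13.2% of all genes passed in vehicle and 8.13% under BBR. Among 8 lipogenic and glycolytic genes that insulin raises in liver, the median log2 fold change with BBR was 0.51, but 1 passed in each direction. Acaca, which encodes acetyl-CoA carboxylase, rose (0.78 ± 0.27, adjusted p = 0.0372), and Srebf1, the lipogenic transcription factor, fell (-0.66 ± 0.13, adjusted p = 0.00138). With knockdown 0 of these 8 passed in either setting, against the same 13.2% and 8.13% of all genes.

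Among 31 other FOXO targets, 1 rose and 3 fell with BBR over both vectors, or 12.9% against 27.3% of all genes. The gluconeogenic enzyme Pck1 (-0.48 ± 0.12, adjusted p = 0.00659) and its activator Klf15 (-0.42 ± 0.11, adjusted p = 0.0072) fell, and Klf6 rose (0.85 ± 0.20, adjusted p = 0.0041). In Vec mice alone 1 of the 31 rose and 3 fell, or 12.9% against 15.5% of all genes. There G6pc, which releases glucose from glucose-6-phosphate, fell (-0.765 ± 0.222, adjusted p = 0.0234), as did Pck1 (-0.65 ± 0.17, adjusted p = 0.0145). Klf6 rose in these mice (1.03 ± 0.28, adjusted p = 0.0178). In shRNA mice 0 rose and 1 fell, or 3.23% against 15.7% of all genes, and G6pc was at -0.03 and did not pass. With knockdown in vehicle 2 of the 31 rose and 3 fell, or 16.1%, a share near the 13.2% of all genes. Bcl6, a repressor of lipid oxidation genes, fell (-1.59 ± 0.41, adjusted p = 0.0133), and the cell cycle inhibitor Cdkn1a (1.295 ± 0.337, adjusted p = 0.0143) and the mTOR inhibitor Ddit4 (0.73 ± 0.23, adjusted p = 0.0379) rose. Under BBR 2 rose and 0 fell, or 6.45% against 8.13% of all genes, namely Ddit4 (0.91 ± 0.23, adjusted p = 0.0174) and Ccng2 (0.54 ± 0.16, adjusted p = 0.0415).

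**Figure D5:**
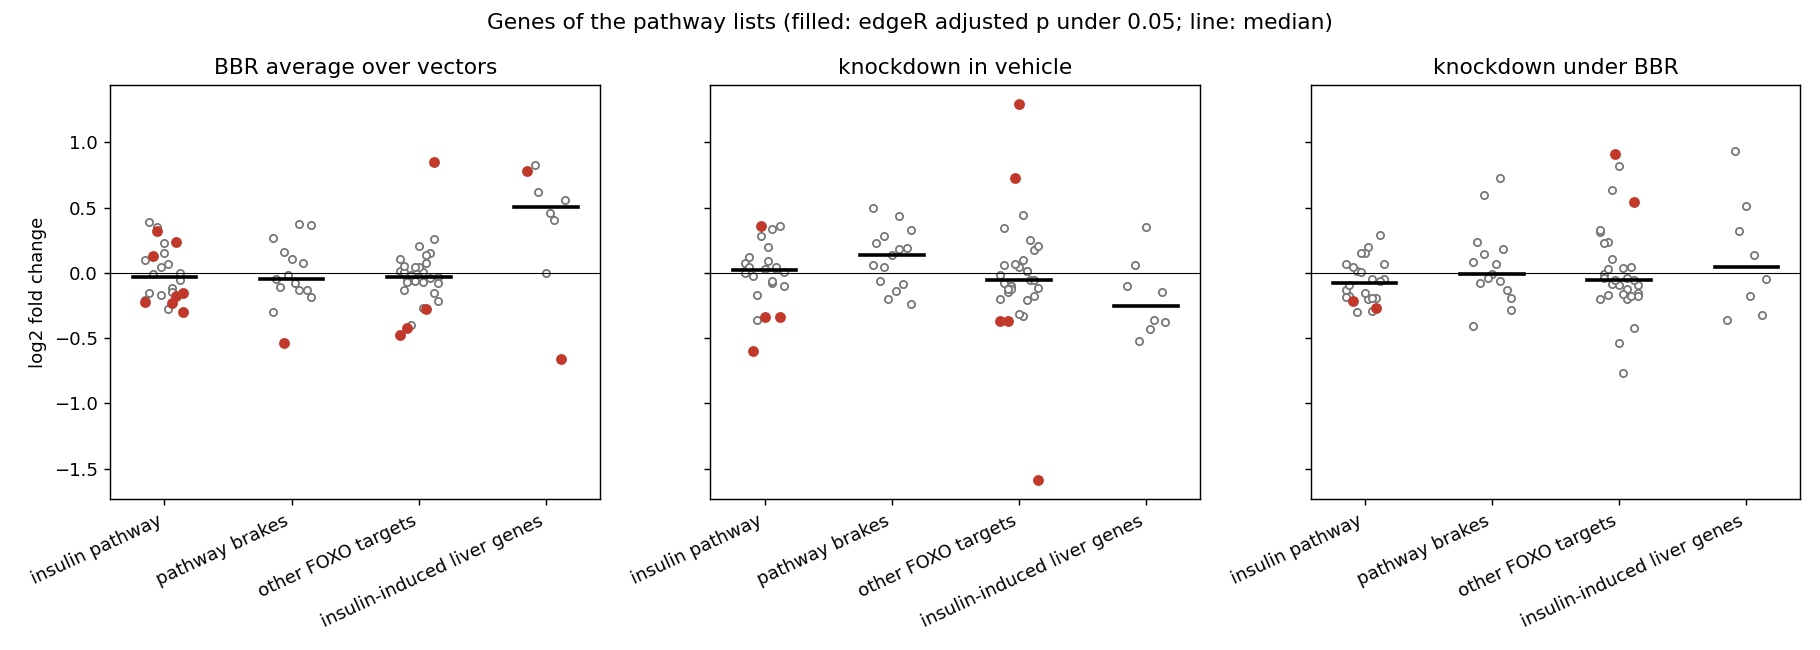
log2 fold change of every tested gene of 4 lists (24 genes of the insulin pathway, 15 brakes, 31 other FOXO targets and 8 insulin-induced liver genes) for BBR over both vectors and for knockdown in vehicle and under BBR; points are genes, filled where the adjusted p was under 0.05, and lines are medians. Medians lie between -0.08 and 0.13 except for the insulin-induced genes with BBR (0.51) and with knockdown in vehicle (-0.26).

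Other gene groups moved in the same comparisons. Beside the change of Pdk4 with BBR, 5 of 8 fasting genes under PPARα rose and 0 fell, where 13.9% of all genes rose, with Vnn1 (0.99 ± 0.14, adjusted p = 6.35e-05), Fgf21 (0.83 ± 0.28, adjusted p = 0.0299) and Ehhadh (0.50 ± 0.10, adjusted p = 0.000911) as those with the highest values. In Vec mice alone 2 of the 8 rose and Angptl4 fell (-0.30 ± 0.10, adjusted p = 0.0423), or 37.5% against 15.5% of all genes. With knockdown in vehicle 3 of the 8 fell, where 7.91% of all genes fell, and Pdk4 was at -0.04 ± 0.35. Beside the falls of Foxo1 and Foxo3 with BBR over both vectors, 5 of 8 glucocorticoid-responsive genes fell, where 13.4% of all genes fell, such as Mt2 (-0.72 ± 0.20, adjusted p = 0.0111) and Tat (-0.67 ± 0.18, adjusted p = 0.0106). In Vec mice alone 4 of the 8 fell, where 15.5% of all genes passed in either direction. Mt2 was at -1.28 ± 0.29 there (adjusted p = 0.00518) and Tat at -1.18 ± 0.26 (adjusted p = 0.00499). In shRNA mice 2 of the 8 fell, where 15.7% of all genes passed. These were Fkbp5 (-0.58 ± 0.18, adjusted p = 0.038) and Per1 (-0.57 ± 0.15, adjusted p = 0.0196), and Mt2 and Tat did not pass. The part of either list in the values of the 10 genes was not tested. The clock moved with knockdown, beside Trib1, Depp1 and Arrdc3: of 10 tested clock genes 2 rose and 2 fell in each knockdown comparison. That is 40.0% of them, against 13.2% of all genes in vehicle and 8.13% under BBR. Arntl rose by 1.10 ± 0.31 in vehicle (adjusted p = 0.0229) and 1.57 ± 0.32 under BBR (adjusted p = 0.00519), and Dbp was at -1.34 ± 0.34 (adjusted p = 0.012) and -1.35 ± 0.34 (adjusted p = 0.0176). The summed level of the 11 listed clock genes ran from 232 to 390 CPM in Vec, from 269 to 313 in Vec+BBR, from 266 to 307 in shRNA and from 213 to 265 CPM in shRNA+BBR livers. The part of clock phase in these values was not tested, and sampling times are not given in the sources used here.

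Markers of liver cell types also moved. With BBR over both vectors 6 of 8 stellate cell markers and 4 of 7 endothelial markers rose and 0 of either fell, where 13.9% of all genes rose. In shRNA mice alone 1 endothelial marker rose with BBR and 2 fell, Stab2 (-0.51 ± 0.17, adjusted p = 0.0432) and Kdr (-0.42 ± 0.12, adjusted p = 0.0297). That is 42.9% of the 7, against 15.7% of all genes. Of 7 Kupffer cell markers 1 rose and 1 fell with BBR over both vectors, Cd68 (0.76 ± 0.15, adjusted p = 0.000839) and Marco (-1.82 ± 0.42, adjusted p = 0.00353). The share is 28.6%, near the 27.3% of all genes. Summed Kupffer cell markers ran from 98.3 to 265.5 CPM over all livers. Of 5 tested hepatocyte markers Cps1 fell (-0.99 ± 0.16, adjusted p = 0.000232) and Apob rose (0.32 ± 0.11, adjusted p = 0.0337), or 40.0% against 27.3% of all genes. Summed stellate markers ran from 161.5 to 304 CPM in Vec, from 342 to 364 in Vec+BBR, from 204 to 273 in shRNA and from 272 to 398.5 CPM in shRNA+BBR livers. With knockdown in vehicle 3 of 7 endothelial markers rose and 0 fell, or 42.9% against 13.2% of all genes in either direction. Summed endothelial markers ran from 86.8 to 115 CPM in Vec, 109 to 150.2 in Vec+BBR, 122 to 155 in shRNA and 105 to 152 CPM in shRNA+BBR livers. No stellate or endothelial marker was at the floor in every library of a group. In whole liver, fewer cells of a type and less RNA per cell cannot be told apart, and the part of cell makeup in the values of the 10 genes was not tested. Of 5 adipocyte markers, Lep, Plin1 and Adipoq were at the floor in all Vec libraries, and Cfd rose with BBR (4.25 ± 0.56). Summed adipocyte markers reached at most 6.31 CPM in any liver.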

How the data were processed

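Polyadenylated liver RNA of 20 mice was sequenced, 1 library per mouse and 5 per group. The authors deposited expected counts per gene, which were not normalized, and FPKM values, which are scaled for length and depth. The submitters' processing notes name mm10, and the aligner, counter and annotation are not given in the sources used here. Groups and replicate numbers came from the labels. Doses, ages and fasting come from the study's methods. Positions are those of GENCODE M21 (GRCm38), which holds 22255 of the 22298 identifiers. No 2 libraries of a group agreed within sampling noise (lowest chi-square per gene 14.3 among 40 pairs).

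Counts were rounded and genes kept by filterByExpr (minimum count 10, minimum total 15). The 12342 genes were fitted with edgeR 4.0.16 (R 4.3.3) with TMM factors between 0.873 and 1.14, a mean for each group and all libraries in 1 fit. Quasi-likelihood tests were adjusted by Benjamini-Hochberg with a threshold of 0.05. A standard error is the absolute log2 fold change divided by the square root of F, and all tests are two-sided. CPM were scaled with the TMM factors. The steps were tested on simulated data. The 10 genes and all lists were chosen with earlier results of these data known.

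Genes named from a list are at most the 3 with the largest change per comparison among those past the threshold with a mean count of at least 50, and not every gene the rule allows is named. Cfd, Foxo6, the cell markers and Irs1 with Igfbp1 were named after their values were seen. Alternatives were DESeq2 1.42.0 and its size factors, no filter, 2 groups only, a block for replicate numbers, each library left out, library size scaling or a prior count of 0.5 (main 2) for correlations, and the length score.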

Additional observations from a re-analysis of the deposited data

Results flagged for a closer look

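Among the 10 genes in 4 groups, 40 sets of 5 mice were searched for a mouse far from the others, and 2 were found, where chance gives about 1 in 20. Both are the same mouse, shRNA replicate 1. Its Igfbp1 level of 26.14 CPM was the lowest of the shRNA group, with the nearest mouse at 41.92 CPM and a gap of 0.81 of the range. Its Foxo3 level of 50.26 CPM was the highest of the group, with the nearest mouse at 44.09 CPM and a gap of 0.79 of the range. The same mouse had the highest Arrdc3 level of its group (36.6 CPM) and the highest Trib1 level (29.6 CPM).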

How the results depend on the processing

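The calls of Trib1 with knockdown, in vehicle and under BBR, and of Foxo3 with BBR over both vectors held in every alternative run. Foxo1 with BBR was lost in 15 of 25 alternatives (no filter, adjusted p = 0.0539, and 14 left-out libraries) and Pdk4 in 8 of 25, all left-out libraries. With 1 library left out, the number of the 10 genes called ran from 1 to 4 for BBR over both vectors (1 without Vec replicate 2 or 4 or shRNA replicate 4 or 5), from 0 to 1 for BBR in Vec (1 without Vec replicate 3 or Vec+BBR replicate 4) and from 0 to 3 for BBR in shRNA (3 without shRNA+BBR replicate 5, with Insr at -0.49, adjusted p = 0.0397, and Pdk4 at 1.10, adjusted p = 0.0371). It stayed at 1 in both knockdown comparisons and at 0 for the interaction. In fits of 2 groups only, 3 were called for BBR in shRNA and 2 for knockdown in vehicle, beside 2061 and 1149 of all genes. With the length score, 4 were called for BBR in Vec, 0 for BBR in shRNA, 3 for knockdown in vehicle and 2 for knockdown under BBR. In the same order, 2345, 947, 1477 and 1313 of all genes were called. Called pairs numbered 11 with library size scaling in place of TMM, and 4 to 7 with 1 liver left out.

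None of the values that changed sign had been called. With the length score, the log2 fold change became -0.135 for Insr and -0.028 for Trib1 with BBR in Vec, -0.048 for Insr, -0.119 for Irs1 and -0.086 for Foxo3 with knockdown in vehicle, and 0.529 for Irs1 (now past the threshold), 0.323 for Igfbp1 and 0.02 for Foxo1 with knockdown under BBR. The interaction of Insr became 0.005. With 1 library left out, signs changed within -0.058 to 0.243 for Insr, -0.466 to 0.113 for Irs1 and -0.073 to 0.062 for Trib1 with BBR in Vec, -0.009 to 0.289 for Igfbp1 with BBR in shRNA, -0.072 to 0.073 for Foxo3 and -0.25 to 0.35 for Pdk4 with knockdown in vehicle, and -0.351 to 0.018 for Irs1 and -0.37 to 0.28 for Igfbp1 with knockdown under BBR. The causes were not tested.

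Same-numbered mice of different groups correlated over 0.1 in at most 3 of 5 numbers (shRNA with shRNA+BBR) and in 0 or 1 of 5 elsewhere, so the numbers were not taken as a pairing. With a replicate block Depp1 with BBR over both vectors was 0.615 (adjusted p = 0.0295), Pdk4 with knockdown in vehicle 0.062 and Igfbp1 with knockdown under BBR 0.054, and it changed no other call of the 10 genes. Over all genes, calls for BBR in Vec went from 1908 to 1178 with 2 groups only and as low as 1237 without Vec replicate 2. Those for BBR in shRNA went from 1932 to 947 with the length score and to 661 without shRNA+BBR replicate 3, and those of knockdown from 1628 to 1015 without shRNA replicate 4 in vehicle and from 1004 to 538 without shRNA+BBR replicate 2 under BBR. Interaction calls went from 18 to 338 with DESeq2, to 2 with the length score and to between 5 and 122 with 1 library left out. The lowest counts of the 10 genes in a library were 42 for Depp1 and 46 for Irs1.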
